A study of Rattus norvegicus with 24 samples.

Results

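The 4 actin genes described here are Acta1 (ENSRNOG00000017786), Actc1 (ENSRNOG00000008536), Acta2 (ENSRNOG00000058039) and Actb (ENSRNOG00000034254), 4 of 32883 genes in each of 2 tables of rat heart RNA sequencing. They were chosen by identifier, and all 4 were present and passed the filter on low values in both tables. The pairing of identifier and symbol came with the member list, since the deposited tables hold identifiers alone and the reference used here matched 0 of the 32883. RNA was measured in 12 rats of strain WI, 6 labelled DAAO and 6 labelled CTL (read here as control), with a library of the left ventricle plus septum and a library of the right ventricular free wall for each animal number. The study is titled as one of chemogenetic heart failure, and DAAO commonly stands for D-amino acid oxidase, which releases hydrogen peroxide when it is given a D-amino acid to oxidize. The labels do not tell how it was delivered, which promoter and substrate were used, what CTL animals received, or the animals' age and sex. Animals are named here as in the headings of the tables, with C for CTL and D for DAAO. The comparisons asked whether the actins differed between DAAO and CTL hearts in each ventricle.

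Actin is the protein of the thin filaments that myosin pulls on, and of the cytoskeleton of every cell. Vertebrates carry several nearly identical actin genes that are used in different tissues. Actc1 encodes cardiac alpha-actin, the main sarcomeric actin of the adult heart, whereas Acta1 encodes skeletal alpha-actin, which is abundant in the fetal and newborn rodent heart, recedes with age and returns in pressure overload. A high Acta1 level relative to Actc1 is therefore a common readout of the fetal gene program. Acta2 encodes smooth muscle alpha-actin, found in the walls of vessels and in myofibroblasts, and Actb encodes cytoplasmic beta-actin, present in nearly all cells and often used as a loading control. Serum response factor, a transcription factor that acts on many actin genes, binds a DNA element called the CArG box.

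The upstream sequences of the actins are shown because these genes are classic targets of that factor, and they let the elements ahead of the called gene, Acta1, be set beside those ahead of Actc1 and Acta2. RefSeq sequences of assembly GRCr8 were at hand for 3 of the 4 members, Acta1 (chr19:68784195-68784444), Actc1 (chr3:121271828-121272077) and Acta2 (chr1:241172504-241172753), all on the minus strand, with none for Actb. Each is the 250 bases ahead of the annotated start, 5′ to 3′ in the sense of the gene. Capitals mark CArG boxes (CC and GG framing 6 bases that are all A or T), CArG-like elements (the same frame with 1 of the 6 inner bases G or C) and the element CATTCC on either strand, the core of the M-CAT site.
Acta1: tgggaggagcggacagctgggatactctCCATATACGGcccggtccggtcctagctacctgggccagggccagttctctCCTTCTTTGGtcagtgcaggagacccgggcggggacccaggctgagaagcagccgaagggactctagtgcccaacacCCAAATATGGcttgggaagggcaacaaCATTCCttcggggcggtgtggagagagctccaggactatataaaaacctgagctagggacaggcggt
Actc1: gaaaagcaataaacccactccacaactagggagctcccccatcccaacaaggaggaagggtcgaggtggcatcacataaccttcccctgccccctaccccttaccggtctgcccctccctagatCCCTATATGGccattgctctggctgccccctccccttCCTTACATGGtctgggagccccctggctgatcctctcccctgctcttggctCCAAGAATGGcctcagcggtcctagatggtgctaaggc
Acta2: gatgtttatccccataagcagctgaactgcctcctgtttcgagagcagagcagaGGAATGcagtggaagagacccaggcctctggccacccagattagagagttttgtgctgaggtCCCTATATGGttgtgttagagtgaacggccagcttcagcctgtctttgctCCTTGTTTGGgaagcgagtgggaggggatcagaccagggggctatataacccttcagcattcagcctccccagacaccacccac
The Acta1 sequence held 1 full CArG box, CCAAATATGG, at 94 to 85 bases ahead of the start, and 2 CArG-like elements, CCATATACGG and CCTTCTTTGG. The Actc1 sequence held 0 full boxes and 3 CArG-like elements, the first of them CCCTATATGG. The same 10 letters stood in the Acta2 sequence, which held 2 CArG-like elements, the other being CCTTGTTTGG. CATTCC occurred 1 time in Acta1, at 67 to 62 bases ahead of the start, and 1 time on the opposite strand in Acta2. None of these elements overlapped another. Among 33469 upstream sequences of the same length, 1.50% held a full CArG box, 8.08% held a full box or a CArG-like element, 0.693% held 2 or more of these and 12.1% held CATTCC. These matches describe letters in the window and were not tested for binding. Bases outside the window, or ahead of any other start of the gene, were not searched. A full box absent from the Actc1 or Acta2 window may therefore lie elsewhere.

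The libraries held 15363539 to 23263897 recovered reads in the left and 13280705 to 18777633 in the right ventricle. The least covered member, Acta2, still had 964 to 3313 reads per library, so counting error was small beside the spread between animals. The values are normalized counts, that is, reads of a gene divided by a factor for the library, without correction for transcript length. Levels of different genes are therefore not compared as amounts of transcript. The pair of CTL animals with the lowest numbers, C_7000 and C_7005, stood apart in expression, mainly in the left ventricle. They differed from the 4 other CTL animals in 2140 of 14041 genes in the left and 107 of 13489 genes in the right ventricle (limma, adjusted p below 0.05), and values without them are given where they matter. No other pair of CTL animals was compared in this way. Of the 2, C_7005 weighed more in the calls of DAAO against CTL. Without it limma called 6472 genes in the left and 4252 in the right ventricle, against 5235 and 3574 with all animals. Without C_7000 it called 5082 and 3253, and without 1 of the other CTL animals 4411 to 4539 and 2919 to 2989. All DAAO animals have higher numbers than all CTL animals, so the groups and anything else that goes with the numbers cannot be told apart.

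Acta1 was higher in DAAO than in CTL hearts in both ventricles, and its groups did not overlap in either. In the left ventricle its normalized count ranged from 14040 to 57999 in DAAO with a median of 25308, and from 3686 to 6815 in CTL with a median of 4946. The lowest DAAO library, that of animal D_7138, stood 2.06-fold above the highest CTL library, that of animal C_7121. This gave a log2 fold change of 2.41 with an SE of 0.30 (limma adjusted p = 7.56e-05), a 5.32-fold rise with a 95% interval from 3.40 to 8.33. Only 111 of the 14041 genes tested had a larger log2 rise in the left ventricle. In the right ventricle the counts ranged from 23022 to 49104 in DAAO with a median of 33673, and from 2182 to 8419 in CTL with a median of 5940. Animal D_7138 was again the lowest in DAAO, and it stood 2.73-fold above the highest CTL library, that of animal C_7118. The Acta1 log2 fold change there was 2.59 with an SE of 0.31 (limma adjusted p = 0.000357), a 6.01-fold rise with a 95% interval from 3.82 to 9.46, and 102 of 13489 genes had a larger one. In bulk tissue, fewer cells of a type and less RNA per cell cannot be told apart, and this holds for each of the actins.

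Of the 4 actins, Acta1 was the 1 called in either ventricle by limma with all animals and equal library weights. Over all genes tested, 37.3% were called in the left ventricle, 17.3% as higher and 20% as lower in DAAO. In the right ventricle 26.5% were called, 12.5% as higher and 14% as lower. Groups that did not overlap were found for 15.9% of genes on the left, 7.58% with DAAO above and 8.28% with DAAO below CTL. On the right they were found for 9.96%, of which DAAO was above CTL in 4.46% and below in 5.5% of all genes tested. The rise of Acta1 was present in each leave-out of a single animal, with log2 fold changes of 2.18 to 2.59 on the left side and 2.32 to 2.71 on the right side.

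**Figure D1:**
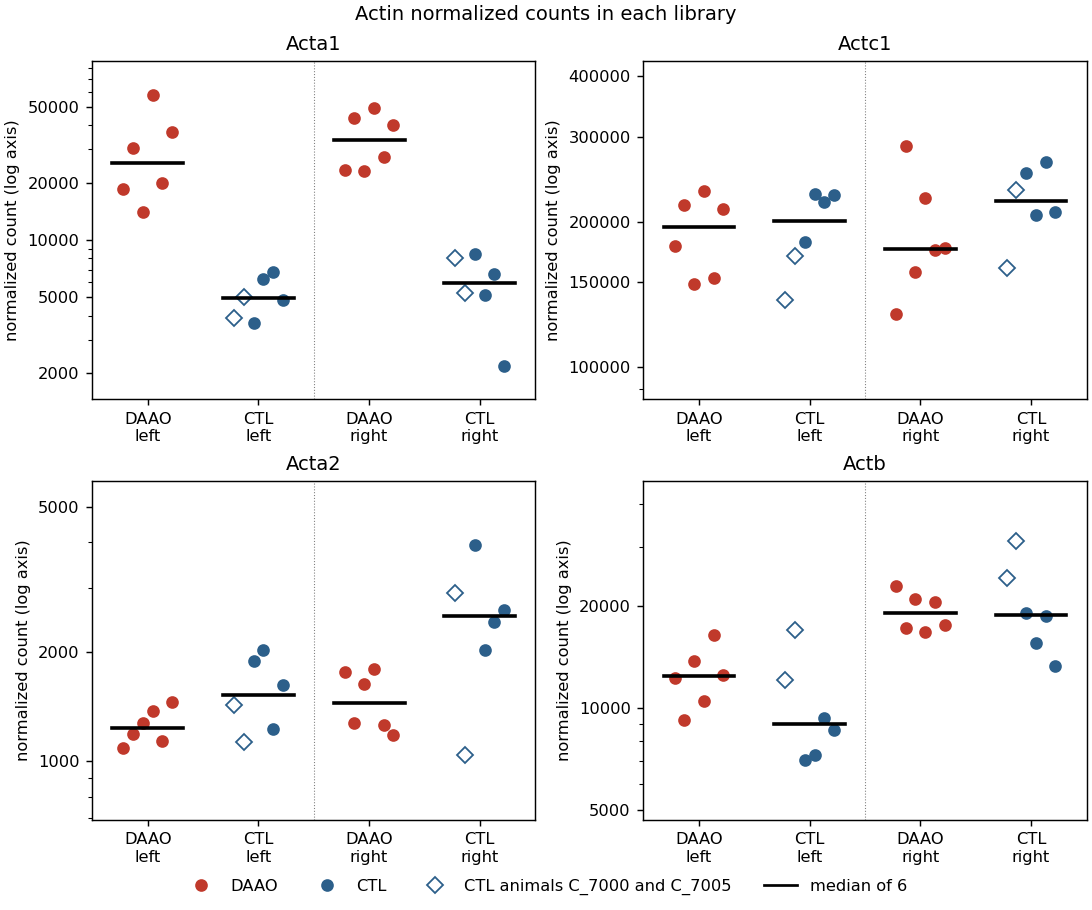
Normalized counts (log axes, a different range in each panel) of the 4 actins in each library, with a point per animal, open diamonds for CTL animals C_7000 and C_7005 and a line at the median of 6. DAAO and CTL points separate fully for Acta1 in both ventricles, from 14040 up in DAAO and up to 6815 in CTL on the left, and overlap for Actc1, Acta2 and Actb.

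Actc1, the adult cardiac isoform, was not shown to differ. Its left ventricular normalized count ranged from 148926 to 231130 in DAAO with a median of 195394, and from 137923 to 228498 in CTL with a median of 200783. These ranges overlapped almost entirely, and 3 of 6 DAAO libraries lay above the CTL median. The log2 fold change was -0.03 (SE 0.19, 95% interval from -0.45 to 0.39, limma adjusted p = 0.922). With all libraries brought to 1 common total it was 0.17, a scaling that moved the median of all genes to 0.21, so relative to that median it was -0.04. Right ventricular Actc1 ranged from 128704 to 286556 in DAAO with a median of 175793, and from 160131 to 265825 in CTL with a median of 220915. The highest and the 2 lowest of the 12 values there were DAAO libraries. The right ventricular log2 fold change was -0.24 (SE 0.25, 95% interval from -0.77 to 0.29, limma adjusted p = 0.499), and 0.01 with equal totals, where the median of all genes was 0.27. Actc1 made up 0.965% to 1.31% of recovered reads in left ventricular DAAO libraries and 0.784% to 1.17% in CTL libraries.

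The ratio of Acta1 to Actc1 was taken within each library, so that it does not depend on the scaling of libraries. Its absolute value is not per transcript length, and lengths cancel when libraries are compared. In the left ventricle there were 9.43 to 25.1 Acta1 counts per 100 Actc1 counts in DAAO, with a median of 13.6, and 2.02 to 3.10 in CTL, with a median of 2.78. The left ventricular ratios by DAAO animal were 9.43 in D_7138, 10.4 in D_7135, 13.1 in D_7143, 14.1 in D_7137, 17.3 in D_7146 and 25.1 in D_7142. The CTL ratios were packed within 1.53-fold of each other, whereas the DAAO ratios spread over 2.66-fold. The mean log2 ratio was 2.44 higher in DAAO (two-sided exact permutation p = 0.00216, and 0.00758 when adjusted over 7 ratio tests by Benjamini-Hochberg), and the 95% interval of the fold was 3.81 to 7.88.

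In the right ventricle the ratio was 14.6 to 22.8 per 100 in DAAO, with a median of 16.8, and 1.04 to 5.04 in CTL, with a median of 2.49. Here the CTL libraries were the wider group, with C_7123 lowest and C_7000 highest, while the DAAO libraries lay within 1.56-fold of each other. The mean log2 ratio was 2.83 higher in DAAO (exact permutation p = 0.00216, adjusted p = 0.00758), with a 95% interval of the fold from 4.45 to 11.7. A p of 0.00216 is the smallest that 6 against 6 libraries allow. Without animals C_7000 and C_7005 the CTL ratios reached at most 3.10 in the left and 3.34 in the right ventricle. Seen as a share, Acta1 made up 12.8% ± 4.2 of the summed Acta1 and Actc1 counts in DAAO and 2.56% ± 0.42 in CTL left ventricles (SD, n = 6 each). In the right ventricle the share was 15.2% ± 2.5 in DAAO and 2.69% ± 1.25 in CTL (SD, n = 6 each). The sum itself averaged 219685 in DAAO and 199263 in CTL left ventricles, and 225719 in DAAO and 227005 in CTL right ventricles. Shares and sums are of counts without length correction, and lengths do not cancel in them as in the ratio. They are not fractions of transcripts.

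**Figure D2:**
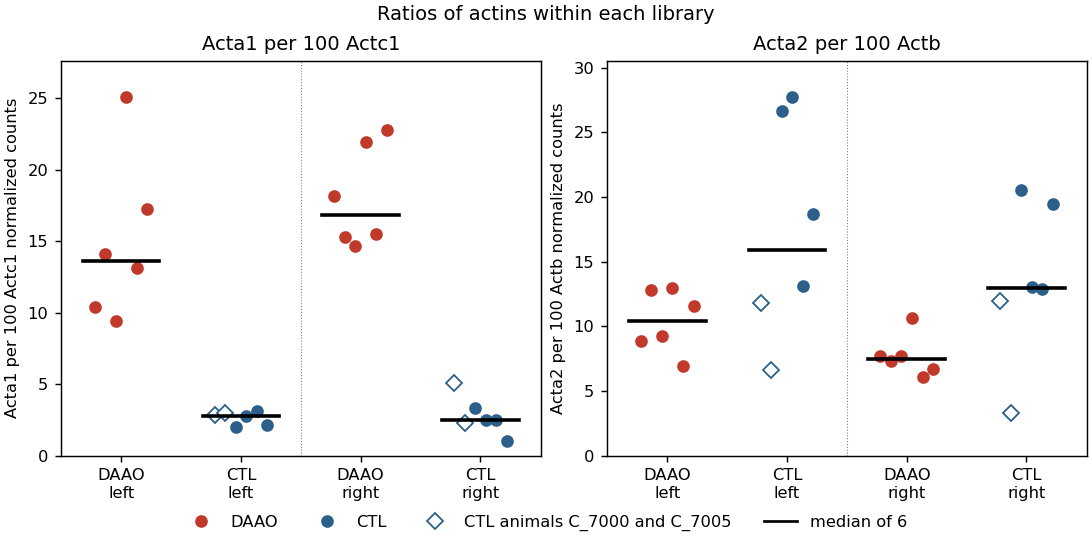
Counts of Acta1 per 100 Actc1 (left panel) and of Acta2 per 100 Actb (right panel) within each library, linear axes from 0, a point per animal and a line at the median of 6. The Acta1 to Actc1 ratio lies between 9.43 and 25.1 in DAAO and at or below 5.04 in CTL; the Acta2 to Actb ratios of DAAO and CTL overlap through C_7000 and C_7005 on the left and through C_7005 alone on the right.

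Acta2, the smooth muscle isoform, had lower medians in DAAO in both ventricles, with differences that missed the threshold. Its left ventricular normalized count ranged from 1089 to 1458 in DAAO with a median of 1233, and from 1129 to 2027 in CTL with a median of 1523. All 6 DAAO libraries lay below the CTL median, and CTL animals C_7005 and C_7121 lay within the DAAO range, as did C_7000. The log2 fold change was -0.28 (SE 0.14, 95% interval from -0.58 to 0.02, limma adjusted p = 0.125). Right ventricular Acta2 ranged from 1182 to 1788 in DAAO with a median of 1448, and from 1038 to 3921 in CTL with a median of 2506. Animal C_7005, at 1038, was the lowest of the 12, and the 5 other CTL libraries, from 2024 to 3921, all lay above the 6 DAAO libraries. The right ventricular log2 fold change was -0.66 (SE 0.25, 95% interval from -1.19 to -0.13, limma adjusted p = 0.0621).

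The call on Acta2 depended on the method and on CTL animal C_7005. Count models on the recovered reads called it in the right ventricle, at a log2 fold change of -0.74 by edgeR (adjusted p = 0.0370) and -0.75 by DESeq2 (adjusted p = 0.0104). They did not call it in the left, at -0.30 by edgeR (adjusted p = 0.121) and -0.31 by DESeq2 (adjusted p = 0.0843). Over 23 alternatives the adjusted p ranged from 0.0232 to 0.629 on the left, below 0.05 in 3, and from 0.00217 to 0.187 on the right, below 0.05 in 5. Without animal C_7005 limma gave a right ventricular value of -0.89 (adjusted p = 0.00217), and leaving out both C_7000 and C_7005 gave -0.86 (adjusted p = 0.00488). The left ventricular value was -0.37 without C_7005 (limma adjusted p = 0.0290) and -0.41 without both animals (limma adjusted p = 0.0232). With all libraries brought to 1 common total, Acta2 was at -0.08 in the left and -0.41 in the right ventricle, which is -0.30 and -0.68 relative to the median of all genes, both not called.

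Actb, the cytoplasmic isoform, was not called in either ventricle by limma with all animals and equal library weights. In the left ventricle it ranged from 9267 to 16445 in DAAO with a median of 12455, and from 7054 to 17095 in CTL with a median of 9015. All 6 DAAO libraries lay above the CTL median, and the 2 highest CTL libraries were those of C_7005, at 17095, and C_7000, at 12142. The log2 fold change was 0.33 (SE 0.21, 95% interval from -0.12 to 0.78, limma adjusted p = 0.225). As a fold, the interval runs from 0.923 to 1.72. Between these 2 and the 4 other CTL animals, left ventricular Actb differed by a log2 of 0.84 (limma adjusted p = 0.0160). Without them the CTL range was 7054 to 9362, and Actb was higher in DAAO at a log2 fold change of 0.61 (limma adjusted p = 0.00520). That fit called 6707 of 14017 genes. As these 2 libraries hold the highest CTL values of Actb, leaving them out raises the difference by construction. Leaving out C_7005 alone, the highest, gave a log2 fold change of 0.49 (limma adjusted p = 0.0253). With all 12 animals and library quality weights, a fit that called 7235 of 14041 genes, it was 0.47 (limma adjusted p = 0.0196), and over 23 alternatives the adjusted p ranged from 0.00520 to 0.412.

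Right ventricular Actb ranged from 16855 to 22929 in DAAO with a median of 19132, and from 13336 to 31252 in CTL with a median of 18919. The DAAO libraries lay wholly inside the CTL range, which C_7005 and C_7000 again headed at 31252 and 24305. The log2 fold change was -0.02 (SE 0.19, 95% interval from -0.42 to 0.38, limma adjusted p = 0.939), and 0.22 without both animals, neither of them called. It was also 0.22 with equal totals, where the median of all genes was 0.27, so relative to that median it was -0.04.

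**Figure D3:**
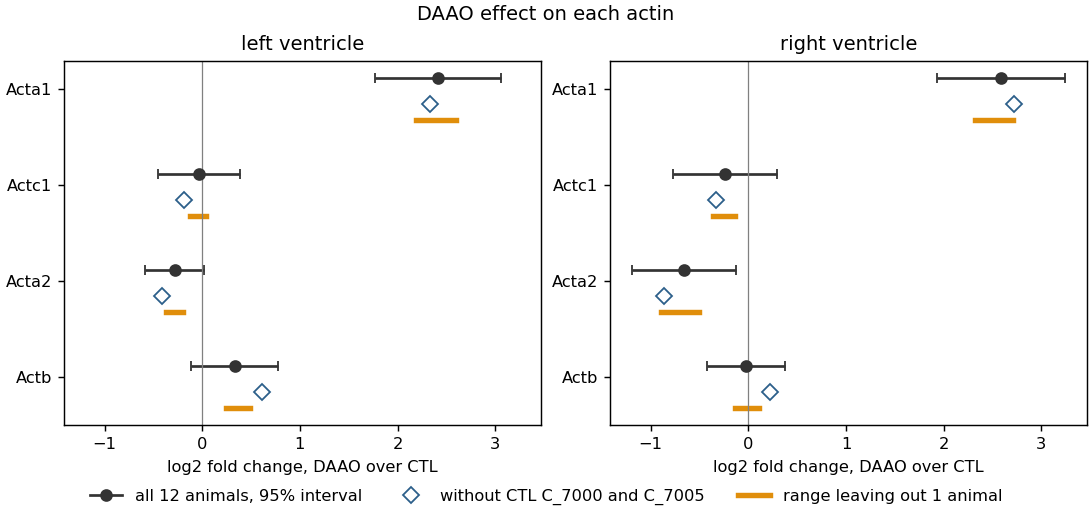
Log2 fold changes of the actins, DAAO over CTL, in the left and right ventricle, with the 95% interval of limma (black), the value without CTL animals C_7000 and C_7005 (open diamond) and the range over leaving out each animal in turn (orange bar). Acta1 lies at 2.41 and 2.59, far from 0 in every version drawn; the intervals of Actc1, Actb and left ventricular Acta2 cross 0, and the direction of right ventricular Actb and of left ventricular Actc1 changes among the versions.

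The ratio of Acta2 to Actb, which is also free of library scaling, sets the smooth muscle against the cytoplasmic isoform. In the left ventricle it was 6.91 to 13.0 per 100 in DAAO with a median of 10.4, and 6.60 to 27.7 in CTL with a median of 15.9. In the right ventricle it was 6.10 to 10.6 in DAAO with a median of 7.50, and 3.32 to 20.5 in CTL with a median of 12.9. The lowest of all values in each ventricle belonged to CTL animal C_7005. The mean log2 ratio differed by -0.62 in the left (95% interval from -1.38 to 0.20, exact permutation p = 0.115, adjusted p = 0.268) and by -0.64 in the right ventricle (95% interval from -1.35 to 0.26, exact permutation p = 0.160, adjusted p = 0.273). Without C_7000 and C_7005, all 4 CTL libraries lay above all 6 DAAO libraries in both ventricles. These 2 animals had the lowest CTL ratios in each ventricle, so the separation depends on leaving them out. How many other genes or ratios separate on the same exclusion was not counted. The differences were then -1.02 and -1.09 (exact permutation p = 0.00476, adjusted p = 0.00833 each). That p is the smallest that 6 against 4 libraries allow. Leaving out C_7005 alone gave -0.86 (exact permutation, adjusted p = 0.0189) and -1.0 (exact permutation, adjusted p = 0.0101).

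The DAAO effects were next compared between the ventricles. None of the 4 actins was called in a limma fit over all 24 libraries, in which 2.93% of 13344 genes were called, nor with the animal number as a block, in which 8.03% were called. None had an unadjusted limma p below 0.05 in the first fit, the smallest being 0.226 for Acta2, and edgeR also called none. For Acta1 the left effect minus the right effect was -0.18 on the log2 scale (95% interval from -1.11 to 0.76, limma adjusted p = 0.903). It was 0.21 for Actc1, 0.38 for Acta2 and 0.35 for Actb, at limma adjusted p values of 0.786, 0.565 and 0.568. These come from the first fit, which treats the left and right libraries of an animal number as separate. With the block the limma adjusted p was 0.772 for Acta1, 0.614 for Actc1, 0.279 for Acta2 and 0.129 for Actb. The intervals of the first fit reached from -0.25 to 1.0 for Acta2 and from -0.24 to 0.95 for Actb, so differences within those limits remain compatible with these data.

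Because the Acta1 to Actc1 ratio needs no scaling, it was also set side by side across ventricles. In DAAO the left ratio was below the right in 5 of 6 animals, with a mean log2 difference of -0.33. Animal D_7142 was the exception, with a higher ratio on the left, 25.1 per 100. Exchanging libraries without regard to animal gave a 95% interval from -0.86 to 0.19 (exact permutation p = 0.195, adjusted p = 0.273). Flipping the sign of each animal's difference, which keeps the pairs, gave an exact p of 0.0938 (adjusted p = 0.201). In CTL the left ratio was below the right in 2 of 6 animals, with a mean log2 difference of 0.05. The 95% interval without regard to animal was -0.60 to 0.79 (exact permutation p = 0.877), and flipping signs within animals gave an exact p of 0.938. The DAAO effect on the log2 ratio was smaller in the left ventricle by 0.39, which was not past the threshold by exchanging libraries within each ventricle (permutation p = 0.750, adjusted p = 0.875). The spread of that test includes the DAAO effect common to both ventricles. Exchanging whole animals, with the animal number as a block, gave an exact permutation p of 0.264 (adjusted p = 0.308, 95% interval of the difference from -1.12 to 0.33). The pairing by number is uncertain for C_7118, C_7120 and C_7123. The CTL values by animal and the test with the block rest on it.

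Among DAAO animals, Acta1 stood in nearly the same order in both ventricles. From low to high the left ventricular order was D_7138, D_7135, D_7143, D_7137, D_7146 and D_7142, and on the right D_7146 and D_7137 changed places. Across the 6 DAAO animals the log2 counts of the ventricles had a Pearson r of 0.942 (exact permutation p = 0.00972) and a Spearman rho of 0.943 (exact permutation p = 0.0167), and r was 0.935 without the 2 animals farthest from the median. Over the 10 relations of this kind the adjusted p was 0.0972 for r, past the threshold for none of them. In CTL the r was -0.255 (exact permutation p = 0.683). Across all genes, the left libraries of C_7118, C_7120 and C_7123 did not match the right library of their own number best. CTL values by animal number are therefore less certain than those of DAAO. For the ratio of Acta1 to Actc1 r was 0.743 in DAAO (exact permutation p = 0.0931) and 0.307 in CTL (exact permutation p = 0.554). CTL Actb had an r of 0.837 (exact permutation p = 0.0347) that became -0.149 without the 2 farthest animals, C_7000 and C_7005.

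**Figure D4:**
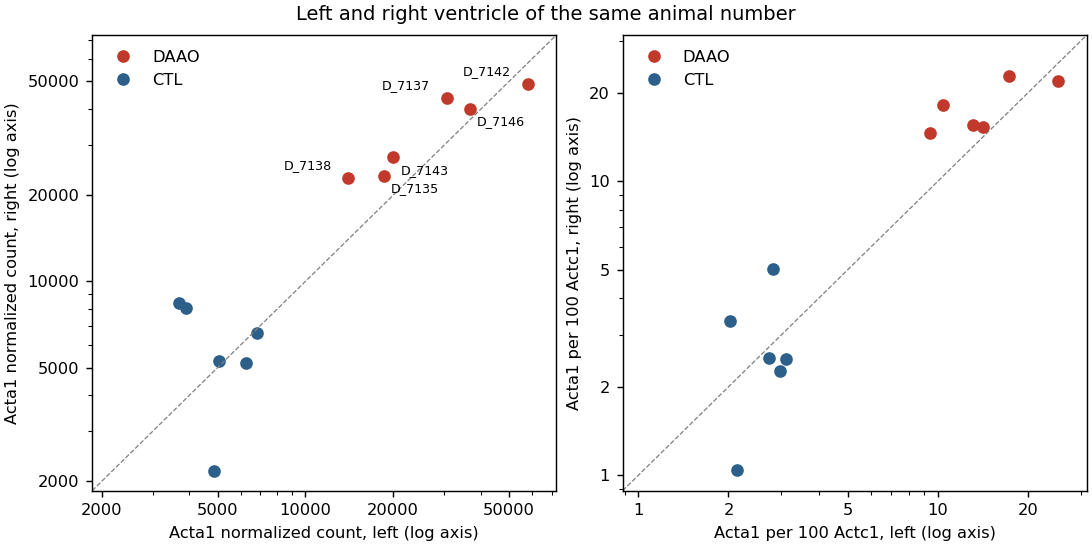
Acta1 normalized count (left panel) and Acta1 per 100 Actc1 (right panel) of each animal number, left ventricle on the x axis and right ventricle on the y axis, both log axes, with a dashed line of equality. In the Acta1 panel the DAAO animals ascend together from D_7138 to D_7142 (r of 0.942 over 6 animals), 5 of 6 above the line, and the CTL animals form a cluster below them with no such order. Left and right counts were scaled separately, so the place of Acta1 points against the line also depends on that scaling. The pairing of C_7118, C_7120 and C_7123 is uncertain.

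Within groups the actins also varied together to different degrees, over 24 relations of 6 libraries of which none passed the adjusted threshold. Acta1 and Actb ran in opposite directions in the right ventricular DAAO libraries, with an r of -0.972 and a rho of -0.943 (exact permutation p = 0.00972 for r, adjusted p = 0.161), and r was -0.989 without the 2 farthest. The same pair had an r of -0.593 in the left ventricular DAAO libraries (exact permutation p = 0.222). In CTL its r was 0.548 in the right (exact permutation p = 0.271) and -0.060 in the left ventricle (exact permutation p = 0.907). This was not particular to Acta1. Actc1 and Actb had an r of -0.848 in the right and -0.827 in the left ventricular DAAO libraries (exact permutation, adjusted p = 0.161 each). In CTL that pair had an r of -0.074 (right) and -0.585 (left). Acta1 and Actc1 had an r of 0.821 (right) and 0.912 (left) in DAAO (exact permutation, adjusted p = 0.161 each). In CTL it was 0.041 (right) and 0.700 (left). The genes of 1 library share its scaling factor, which can add to or take from these values.

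For each actin, the gene most like it was taken as that with the highest mean Pearson r of log2 values over the 12 libraries of each table, among 10951 genes. The values describe likeness over both groups and carry no test. For Acta1 it was ENSRNOG00000015036, with an r of 0.946 in the left and 0.954 in the right ventricle. Its normalized count averaged 11115 in DAAO and 1434 in CTL left ventricles, and 9196 in DAAO and 1662 in CTL right ventricles. For Actc1 it was ENSRNOG00000004206 (r of 0.908 and 0.903), for Acta2 ENSRNOG00000051548 (0.879 and 0.911) and for Actb ENSRNOG00000013014 (0.963 and 0.935).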

How the data were processed

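RNA came from snap-frozen hearts by Trizol and was sequenced paired-end at Novogene, per the labels' protocols. The tools named are FastQC, STAR 2.7.0a and DESeq2 1.26.0, and the build is Rnor_6.0, per the submitters' processing notes. For the read counter, its strand setting and its treatment of reads that fit several genes, details are not given in the sources at hand, so levels of these near-identical actins are uncertain to that extent. Each ventricle has its own table, in which the authors deposited a signal, namely each gene's count over the size factor of its library. All values above 0 were whole multiples of 1 step per library (100% within 1e-06), which gave the reads by division.

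Genes were tested on log2(value + 1) by limma 3.58.1 (R 4.3.3, mean-variance trend, two-sided), Benjamini-Hochberg adjusted over all genes of a table with a mean of at least 10, threshold 0.05. Fold changes of low genes are understated on this scale. Ratios were compared by exact permutation over 924 assignments, adjusted over 7 tests, with intervals by inverting the test. On the recovered reads edgeR 4.0.16 (quasi-likelihood) called 5230 genes in the left and 3497 in the right ventricle, and DESeq2 1.42.0 called 5559 and 4116. The limma fits and the permutation test were checked on simulated data. Animal numbers were read as animals. Across genes, deviations of the left and right library of a number had an r between 0.06 and 0.79, above 0.1 in 10 of 12, and for 9 of 12 the own library was the best match. The exceptions were all CTL, namely C_7118 (r of 0.060), C_7120 (r of 0.057) and C_7123 (r of 0.254). Pairing by number is therefore less certain in CTL than in DAAO. No label says that numbers are separate rats, so p-values measure the spread between these samples. No pair of libraries within a group was near sampling noise, the lowest chi-square over its degrees of freedom being 12.3.

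The members, lists and tests were chosen with earlier results of these data known. Lists of other actins, thin filament, serum response factor and cell type marker genes could not be matched to identifiers, so they and a marker check of the tissue were not run. For each member the single most similar gene was named, where its mean reached 50 in both tables. Leaving out each animal, other scalings, pseudocounts, filters, weights and a replicate block were tried as alternatives.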

Additional observations from a re-analysis of the deposited data

Results flagged for a closer look

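In the right ventricle of DAAO animal D_7142 the Acta2 to Actb ratio was 10.6 per 100, while the next highest DAAO value was 7.71. The gap to its neighbour made up more than 0.625 of the range of the group, the critical value for 6 values. It was the 1 such case among 24 groups of 6 examined, and chance gives about 1 in 20. The same animal had the highest right ventricular Acta2 count of the DAAO group, 1788, and its lowest Actb count, 16855.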

How the results depend on the processing

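The rise of Acta1 passed the threshold in 23 of 23 alternatives in each ventricle, with log2 fold changes of 2.18 to 2.61 (left) and 2.32 to 2.83 (right). The Acta1 to Actc1 ratio did so in 16 of 16 in each. Its groups do not overlap, so leaving out animals always gave the smallest p that the permutation test allows. Those alternatives were fixed in advance and add no support. The number of actins called, 1 in each ventricle, was 3 in the left with library quality weights and without CTL animals C_7000 and C_7005. In the right it was 2 with those weights, with edgeR, with DESeq2 and without both animals. Leaving out 1 animal gave 1 to 3 in the left and 1 to 2 in the right, the higher counts coming without C_7005. These fits also called more genes in all, except edgeR. On the left 7235 of 14041 were called with weights, 6707 of 14017 without both animals and 6472 of 14014 without C_7005, against 5235 of 14041. On the right it was 5293 of 13489 with weights, 4116 with DESeq2, 3497 with edgeR, 4143 of 13494 without both and 4252 of 13485 without C_7005, against 3574 of 13489. The Acta2 to Actb difference was -1.02 in the left and -1.09 in the right without both animals, and -0.86 to -0.45 and -1.0 to -0.48 on leaving out 1 animal.

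Some values near 0 changed sign. With equal totals Actc1 was at 0.17 in the left and 0.0088 in the right ventricle and right ventricular Actb at 0.22, but the median of all genes moved to 0.21 and 0.27, and relative to it they were at -0.04, -0.26 and -0.04. Left ventricular Actc1 was between -0.12 and 0.037 on leaving out 1 animal. Right ventricular Actb was at 0.053 with quality weights, 0.22 without both animals and between -0.13 and 0.11 on leaving out 1 animal. The difference of the Acta1 effect between ventricles was 0.022 by edgeR and between -0.39 and 0.082 on leaving out 1 animal. The CTL left minus right ratio was -0.0015 as a difference of linear ratios, and its log2 value lay between -0.15 and 0.23 on leaving out 1 animal. The cause was not tested.

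With the animal number as a block, no call on an actin or a ratio changed. The left minus right ratio in DAAO then had an exact p of 0.0938 (adjusted p = 0.201), where 0.0313 is the smallest that 6 pairs allow. The block took the count of genes with an effect that differed between ventricles to 1072, against 391 without it. Depth was not limiting for the actins, and 6 animals per group set the width of the intervals.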

Other observations

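Actb took a larger share of reads in the right than in the left ventricle in all 12 animals. In DAAO the share was 0.104% to 0.176% on the right and 0.0508% to 0.107% on the left, and in CTL 0.0757% to 0.190% on the right and 0.0343% to 0.101% on the left. Set against Actc1 within the library, Actb was also higher on the right in 12 of 12, by a median of 1.55-fold in DAAO and 1.70-fold in CTL. Acta2 per 100 Actc1 was higher on the right in 3 of 6 DAAO and 5 of 6 CTL animals, by medians of 1.09-fold and 1.57-fold. The left ventricular samples include the septum, the tables were made separately, and these differences were not tested. How many other genes took a larger share on the right in all 12 was not counted. The pairing of C_7118, C_7120 and C_7123 is uncertain.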
